A study of Mus musculus with 4 samples.

Results

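Genes for the signals that a macrophage can pass to a T cell were described as a set of 10: Cd274, Pdcd1lg2, Cd80, Cd86, Cd40, Icosl, Havcr2, Lgals9, Pvr and Cd48. They and the lists of related genes below were chosen by name, with earlier results of these data known. Counts of detected genes therefore describe these lists only. Each of the 10 had 1 entry among the 55536 Ensembl genes measured. The cells were BMDM (bone-marrow-derived macrophages) cultured from marrow of the strain C57BL/6J, and their polyA RNA was sequenced in 4 biological replicate libraries that form 1 group. According to the sample descriptions, the culture received 100 ng/ml Lipid A, the part of bacterial lipopolysaccharide that the receptor TLR4 binds, over 12 h. It was then held for 12 h after a washout and given 100 ng/ml again for 60 min. The source names and treatment records instead call the agent lipoprotein A and give no washout, so the labels differ on both points. Sex and age were not collected, and all 4 libraries name the same donor record, so the spread between them may be partly technical. Cells left untreated or exposed once were not analysed here, and every level below is a level after the second exposure, not a response to it.

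T cells need a signal through their antigen receptor and further signals through surface contacts with the presenting cell. CD80 and CD86 bind CD28, which promotes activation, and CTLA-4, which restrains it. PD-L1 and PD-L2 bind the inhibitory receptor PD-1, and ICOS ligand binds ICOS. CD40 works in the other direction: it is a receptor on the macrophage that is triggered by CD40 ligand on helper T cells. Macrophages and dendritic cells are known to carry these molecules after contact with bacterial products.

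Expected counts on genes, which are read numbers estimated by a model where reads fit several transcripts, came to 23167140 to 41453162 per library. A level is given in TPM (transcript abundance per fixed total), which is scaled for transcript length and library size and so can be set side by side between genes. At 1 TPM or more in each library, the rule used for detection, there were 10407 genes. Mitochondrial genes held 1.94% to 4.77% of TPM. Nuclear ribosomal RNA genes held 7.14% in replicate 1 and 1.29% to 2.73% in the others. Of 8 macrophage markers 8 had 1 TPM or more in each library, with means of 89.5 TPM (Mertk) to 11353 TPM (Lyz2). Summed over 8 T cell markers the level was 0.41 to 1.85 TPM, over 5 NK cell markers 0.18 to 1.85, over 6 B cell markers 1.77 to 6.66 and over 8 dendritic cell markers 4.84 to 8.02. The neutrophil list stood out, with a sum of 125 and 98.3 TPM in replicates 1 and 3 against 12.7 and 12.1 in replicates 2 and 4. Its S100a8 and S100a9 made up nearly all of that sum, and both varied between libraries (edgeR deviance test described below, adjusted p = 4.96e-06 and 4.76e-11). The granule gene Ltf had 1.48, 0.03, 1.67 and 0.08 TPM, high in the same libraries. Camp, Mpo and Elane had means of 0.79, 0.33 and 0.22 TPM, and the defining markers Ly6g and Retnlg were listed at 0 in all 4 libraries.

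Transcripts of 9 of the 10 genes were detected, against 10407 of all 55536 genes measured. Their levels ran from 863 TPM for Lgals9 to 10.3 TPM for Cd80. The exception was Pdcd1lg2, at 0.435 TPM. A few groups of levels can be read from the plot of TPM by gene: Lgals9, Cd274, Cd48 and Cd40 at 92.4 TPM or more in every library, Cd86, Pvr and Icosl between 16.3 and 88.05 TPM, and Havcr2 and Cd80 at 5.62 to 14.1 TPM. The median of the 10 mean levels was 47.6 TPM, against 17.2 TPM over the 10407 detected genes. The sum over the 10 genes was 1907, 1908, 1907 and 1974 TPM in replicates 1 to 4.

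**Figure D1:**
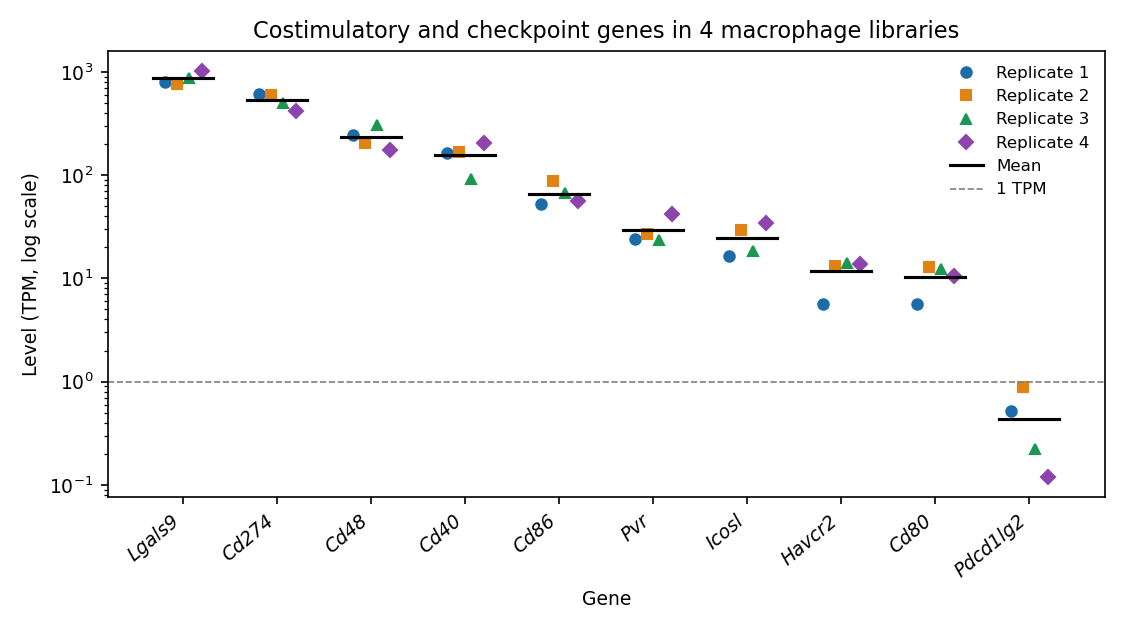
Level of each of the 10 genes (TPM, log axis) in each of the 4 libraries, with the mean as a black bar and the 1 TPM detection line dashed. Lgals9 and Cd274 lie highest, Pdcd1lg2 lies below 1 TPM in every library, and replicate 1 is the lowest for both Havcr2 and Cd80.

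The ligands of PD-1 were the most unequal pair. Cd274 encodes PD-L1 (ENSMUSG00000016496.7, chromosome 19, 29367455 to 29388095 on the plus strand, mm10). Its level was 604, 596, 496 and 421 TPM in replicates 1 to 4, a mean of 529 ± 87.5 (SD, n = 4) that exceeds 97.5% of the detected genes. The highest library was 1.44 times the lowest. Pdcd1lg2 encodes PD-L2 (ENSMUSG00000016498.10, chromosome 19, 29410919 to 29471161, plus strand) and had 0.52, 0.88, 0.22 and 0.12 TPM, a mean of 0.435 ± 0.342. These levels rest on 13, 19, 9 and 4 counts, 45 in all with a 95% Poisson interval of 32.8 to 60.2 for counting error, so the order of the libraries is poorly fixed. Pdcd1lg2 did not pass the filter on low counts, so the edgeR tests below leave it out. Within a library Cd274 was 1162, 677, 2254 and 3505 times the level of Pdcd1lg2.

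The 2 genes are neighbours on chromosome 19. They point the same way, 22823 bases separate the end of Cd274 from the start of Pdcd1lg2, and no annotated gene lies wholly between. Their promoters are shown because levels this far apart come from adjacent genes. Each is the 250 bases before the RefSeq transcription start in GRCm38.p6, 5′ to 3′ on the plus strand, with capitals for a match to the NF-kB consensus.
Cd274 chr19:29367188-29367437: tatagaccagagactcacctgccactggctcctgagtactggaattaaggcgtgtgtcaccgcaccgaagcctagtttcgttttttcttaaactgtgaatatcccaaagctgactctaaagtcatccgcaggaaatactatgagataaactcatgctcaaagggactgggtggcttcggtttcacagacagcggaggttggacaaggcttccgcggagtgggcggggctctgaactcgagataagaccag
Pdcd1lg2 chr19:29410669-29410918: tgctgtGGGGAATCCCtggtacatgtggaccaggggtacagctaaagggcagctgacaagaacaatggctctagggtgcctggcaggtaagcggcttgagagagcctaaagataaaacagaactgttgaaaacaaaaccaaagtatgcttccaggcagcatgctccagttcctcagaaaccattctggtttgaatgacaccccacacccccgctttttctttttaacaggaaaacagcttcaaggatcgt
The match in Pdcd1lg2 begins 244 bases before the start. In windows of this length the NF-kB consensus, searched on both strands, occurs in 3.90% of 32851 RefSeq promoters.

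RefSeq promoters were matched for 7 of the 10 genes, all but Cd86, Cd40 and Pvr. Besides NF-kB, searches on both strands covered the interferon-stimulated response element core (TTTC and again TTTC with any 2 bases between; 2.98% of promoters), the gamma-activated sequence TTCNNNGAA (7.02%) and the AP-1 site TGANTCA (6.75%). The interferon-stimulated core occurred in Lgals9, 55 bases before the start. An AP-1 match occurred in Cd80 at 42 bases and in Havcr2 at 200 bases before the start. The Cd80 window ends just before the annotated transcript Cd80-201 (38458933). Another transcript, Cd80-202, begins at 38455561, and the bases before that start were not searched. No match to the 4 motifs was found in this window of Cd274, Icosl or Cd48, and the gamma-activated sequence occurred in none of the 7. A match of letters describes the sequence only.

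Genes known to act on PD-L1 were all detected, 9 of 9 measured. Irf1, an interferon-induced transcription factor, had a mean of 671 ± 112 TPM (SD, n = 4). The interferon-gamma receptor chains Ifngr1 and Ifngr2 had 107 ± 12.5 and 84.2 ± 12.9 TPM. The list had a median of 75.96 TPM.

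Each of the 2 genes overlaps an antisense transcript in the annotation. Whether reads were assigned by strand is not given in the sources used here. AC119228.1, antisense to Cd274, was listed at 6.10, 12.3, 6.95 and 5.43 TPM, far below Cd274. A930007I19Rik, antisense to Pdcd1lg2, was listed at 1.55, 2.98, 1.18 and 1.21 TPM, above Pdcd1lg2 in all 4 libraries, so the low level of Pdcd1lg2 cannot be separated from reads of its partner if strand was not used.

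The ligands of CD28 and CTLA-4 were both present, with more Cd86 than Cd80 in every library. Cd86 (ENSMUSG00000022901.13, chromosome 16, 36603869 to 36666081, minus strand) had 52.9, 88.05, 67.4 and 56.0 TPM, a mean of 66.1 ± 15.9 (SD, n = 4). Replicate 2 was the highest and replicate 1 the lowest. Cd80 (ENSMUSG00000075122.5, chromosome 16, 38455561 to 38496335, plus strand) had 5.62, 12.9, 12.3 and 10.5 TPM, a mean of 10.3 ± 3.29. Replicate 1 was again the lowest, well below the other 3. The Cd86 to Cd80 ratio was 9.41, 6.85, 5.48 and 5.36 in replicates 1 to 4. Against Cd274 the position of Cd86 was steady in 3 libraries: Cd274 was 11.4 times Cd86 in replicate 1 and 6.77, 7.36 and 7.51 times in replicates 2, 3 and 4.

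Icosl, the ligand of ICOS (ENSMUSG00000000732.9, chromosome 10, 78069302 to 78083913, plus strand), had 16.3, 29.4, 18.2 and 34.1 TPM, a mean of 24.5 ± 8.64 (SD, n = 4). Replicates 1 and 3 were the low pair and replicates 2 and 4 the high pair, and any 4 unequal values form such pairs. The sum of the neutrophil list given above, nearly all S100a8 and S100a9, divided the libraries into the same pairs in the opposite direction. Its part in the result was not tested. How many of all genes divide the libraries this way was not counted. Fewer cells of a type and less RNA per cell cannot be told apart in these bulk libraries.

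Cd40 encodes the receptor for CD40 ligand (ENSMUSG00000017652.16, chromosome 2, 165055627 to 165072948, plus strand). Its level was 164, 166, 92.4 and 204 TPM, a mean of 157 ± 46.7 (SD, n = 4). Replicate 3 was the lowest and replicate 4 the highest, 2.21 times replicate 3. Downstream of CD40, which signals through TRAF adaptors to NF-kB, 8 of 8 listed genes were detected, with a median of 20.2 TPM. Traf1 led them at 90.3, 153, 58.2 and 114 TPM, also lowest in replicate 3. Nfkb2 and Relb, which encode NF-kB proteins of the non-canonical branch, had means of 88.1 ± 19.6 and 45.2 ± 8.55 TPM and were both lowest in replicate 3 (61.1 and 35.0 TPM). Traf2 had 28.1 ± 2.36 TPM and was lowest in replicate 4. Over the whole list 4 of 8 genes were lowest in replicate 3, against 16.2% of the detected genes. Map3k14, Traf5 and Traf6 were instead lowest in replicate 1, and Traf6 was highest in replicate 3 (10.05 TPM). None of the 8 listed genes passed the test of variation between libraries described below.

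Lgals9 and Havcr2 form a ligand and receptor pair, galectin-9 and TIM-3, both of which macrophages can make. Lgals9 (ENSMUSG00000001123.15, chromosome 11, 78962974 to 78984946, minus strand) was the most abundant of the 10 genes, with 789.6, 770.5, 875 and 1018 TPM and a mean of 863 ± 113 (SD, n = 4). It ranked 136 among all genes. Havcr2 (ENSMUSG00000020399.14, chromosome 11, 46454935 to 46481255, plus strand) had 5.69, 13.2, 14.1 and 13.9 TPM, a mean of 11.7 ± 4.03. Replicates 2 to 4 lay within 1 TPM of each other and replicate 1 lay far below them. The Lgals9 to Havcr2 ratio was 139 in replicate 1 and 58.4, 62.3 and 73.1 in replicates 2, 3 and 4.

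Pvr and Cd48 bind receptors that T cells share with NK cells. Pvr (CD155; ENSMUSG00000040511.14, chromosome 7, 19903578 to 19921160, minus strand) is a ligand of the activating receptor CD226 and of the inhibitory TIGIT, and had 24.0, 26.9, 23.6 and 42.1 TPM, a mean of 29.15 ± 8.75 (SD, n = 4). Replicate 4 stood above 3 close libraries. Cd48 (ENSMUSG00000015355.13, chromosome 1, 171682009 to 171705258, plus strand), a lipid-anchored ligand of CD2 and CD244, had 243.5, 205, 308 and 175 TPM, a mean of 233 ± 57.4. Replicates 3 and 1 were the high pair and replicates 2 and 4 the low pair. The sum of the neutrophil list had the same pairs in the same direction, and its part in the result was not tested. How many of all genes divide the libraries this way was not counted. Cd48 did not pass the test of variation between libraries described below.

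To ask which neighbours in the order of levels could be told apart, each gene was compared with the next lower one on the log2(TPM + 0.1) scale in every library. The order came from mean levels in these same 4 libraries, so the direction of a step is not independent evidence. It was the same in all 4 libraries for 7 of 9 neighbouring pairs. With 4 libraries the exact two-sided sign-flip test cannot go below p = 0.125 (adjusted p = 0.161 over the 9 pairs), so no pair could pass 0.05. Cd48 exceeded Cd40 by 0.60 ± 0.83 log2 units (SD, n = 4) and in 3 of 4 libraries (exact p = 0.25). Pvr exceeded Icosl by 0.27 ± 0.29 log2 units, also in 3 of 4 (exact p = 0.25), and these neighbours did not differ beyond their spread. Havcr2 exceeded Cd80 by only 0.16 ± 0.18 log2 units, in 4 of 4 libraries, and the order of that pair turned around in another quantification of the same reads, to -0.30 ± 0.15. The largest step was from Cd80 to Pdcd1lg2, 4.45 ± 1.16 log2 units, and its size depends on the added constant because Pdcd1lg2 is near 0: it was 2.95 with 1 TPM added and 4.83 with 0.01 TPM. The remaining steps, Lgals9 to Cd274, Cd274 to Cd48, Cd40 to Cd86, Cd86 to Pvr and Icosl to Havcr2, were 0.71 ± 0.43, 1.20 ± 0.36, 1.22 ± 0.65, 1.19 ± 0.57 and 1.08 ± 0.49 log2 units.

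Differences between the 4 libraries were then compared with those of other genes. Each gene's deviance over the libraries was set against the trend of dispersion with abundance in edgeR, with Benjamini-Hochberg adjustment over 11679 genes. None of the 9 tested genes of the set passed an adjusted p of 0.05, against 305 of 11679 genes (2.61%), and none passed with the dispersion trend of DESeq2. At an unadjusted p under 0.05 there were 4 of 9, against 7.79% of all tested genes. Cd40 came closest, with an adjusted p of 0.234 from edgeR, and from 0.0539 (without replicate 1) to 1.00 (without replicate 3) over its 8 alternatives. Icosl had 0.351, Havcr2 0.458 and Pvr 0.636 by the same edgeR test. The median SD of log2(TPM + 0.1) over the 9 genes was 0.39, against 0.25 over the detected genes. Leaving out replicate 1 lowered the number of varying genes from 305 to 135.

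**Figure D2:**
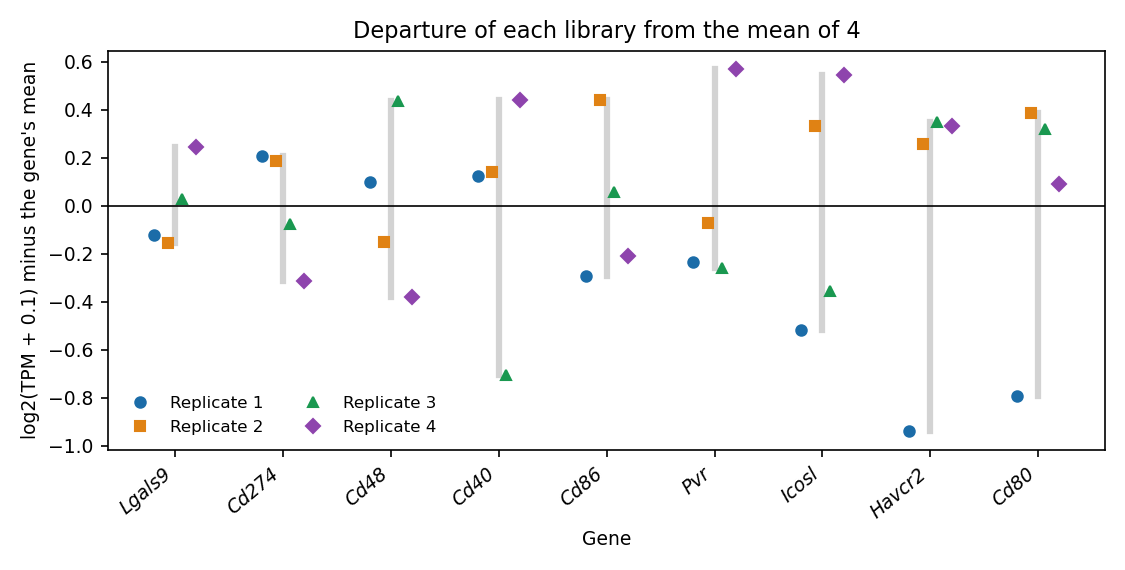
Departure of each library from the gene's mean (log2(TPM + 0.1), 0 is the mean of 4 libraries) for the 9 detected genes, with a grey bar over the range. Replicate 1 is lowest for Havcr2, Cd80, Cd86 and Icosl, replicate 3 is lowest for Cd40 and Pvr, and replicate 4 is highest for Lgals9, Cd40, Pvr and Icosl.

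Which library was low differed from gene to gene, as the plot of departures by library shows. Replicate 1 was the lowest for 4 of the 9 detected genes, and for 48.4% of all detected genes. Its Havcr2 level stood apart from the other 3 libraries by Dixon's criterion (gap over range 0.898, above the 95% value for 4 samples), a criterion that 509 of the 10407 detected genes (4.89%) meet with 1 library. Replicate 1 also had the largest share of ribosomal RNA genes, 7.14% of TPM, and its part in these levels was not tested.

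The libraries also differ in a recorded way: replicates 1 and 2 have 6 read files each and replicates 3 and 4 have 4. Cd274 was lower in both libraries with 4 files (496 and 421 TPM) than in both with 6 (604 and 596 TPM), as were 14.5% of the detected genes. Lgals9 and Havcr2 were higher in both libraries with 4 files, as were 24.6%. The edgeR quasi-likelihood test of this split, 2 libraries against 2, called none of 11679 genes (0%) and none of the 9. At an unadjusted p under 0.05 it reached 838 genes (7.18%) and again none of the 9. DESeq2 called 88 genes by the same split, none of them in the set. For Cd274 the fitted log2 difference of libraries with 4 files from those with 6 was -0.44 (edgeR quasi-likelihood, adjusted p = 0.731).

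Another quantification deposited for the same libraries, made directly from the reads and summed over transcripts, gave lower levels for most genes. Over 10399 detected genes its TPM had a median of 0.735, 0.649, 0.964 and 0.902 times the first in replicates 1 to 4. For Cd274 the ratio was 0.678, 0.598, 0.934 and 0.876, close to that shift, which gave levels of 409.8, 356, 463 and 369 TPM and a mean of 399 ± 48.3 (SD, n = 4). Those TPM put the libraries with 4 read files on no one side of the others, but the shift itself is unequal between libraries. Divided by it, a scaling chosen after seeing the data, Cd274 had 558, 549, 480.3 and 409 TPM, and both libraries with 4 files lay below both others as in the first. Cd40 went up relative to the shift in every library, with ratios of 1.00, 0.971, 1.41 and 1.24. So did Cd80, with ratios of 0.988, 0.798, 1.39 and 1.28, which placed it above Havcr2.

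Transcripts of the same gene can encode different proteins, and the deposited tables divide each gene among its annotated transcripts. In 9 of the 10 genes a single transcript held over 50% of the gene's TPM on average. Cd274-201 was the sole annotated transcript of Cd274, and Havcr2-201 held 100% of Havcr2 in every library. Cd48-202 held 99.5% ± 0.37 (SD, n = 4), Cd86-201 96.6% ± 1.22, Lgals9-202 96.4% ± 0.44, Pvr-201 86.1% ± 2.28 and Icosl-201 81.0% ± 4.09. Most of what was left in Icosl went to Icosl-204 (10.7% ± 2.91) and Icosl-202 (7.83% ± 1.80), which the annotation marks as retained introns without a coding sequence. Pdcd1lg2-201 held all of the few counts of its gene, but in the other quantification it held 66.3% ± 47.1 and Pdcd1lg2-202, with the same coding sequence, 33.7% ± 47.1.

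**Figure D3:**
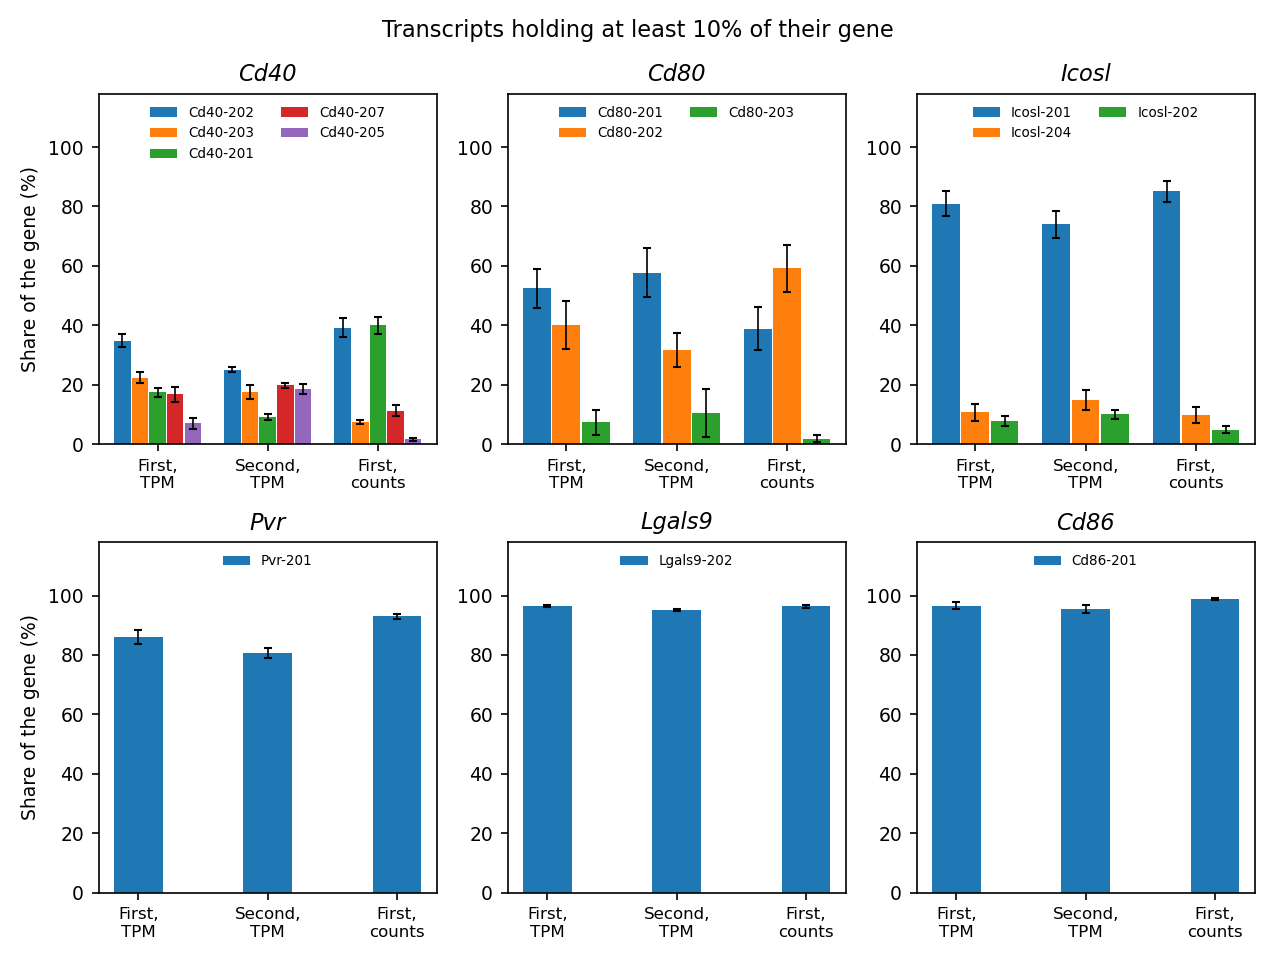
Share of the gene (percent, mean with SD over 4 libraries) for 6 genes, from the first quantification by TPM, from the second by TPM and from the first by expected counts. Drawn are transcripts with a mean of at least 10% by TPM in the first or the second quantification. Cd40 is spread over 5 transcripts, and on average the leading transcript of Cd80 is Cd80-201 by TPM and Cd80-202 by counts.

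Cd40 was the gene with no leading transcript. Cd40-202 held 32.6%, 34.8%, 38.1% and 34.1% of its TPM in replicates 1 to 4, a mean of 34.9% ± 2.33. Cd40-203 followed with 22.4% ± 1.79, the full-length Cd40-201 with 17.4% ± 1.52, Cd40-207 with 16.9% ± 2.55 and Cd40-205 with 6.99% ± 1.75. This order held in replicates 2, 3 and 4, while replicate 1 had more Cd40-207 (20.1%) than Cd40-201 (17.6%). Transcripts marked as protein coding held 74.8% ± 1.31 in all. Cd40-207, marked for nonsense-mediated decay, and Cd40-205, a retained intron, made up most of the remainder.

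The coding transcripts of Cd40 with at least 10% of the gene differ in 2 internal exons, numbered as in Cd40-201, which has 9 exons and 867 coding bases. These exons are printed because their presence or absence sets which protein a transcript encodes, and each is given 5′ to 3′ on the plus strand in mm10. Exon 7 encodes the stretch that anchors CD40 in the membrane.
Cd40 exon 6, chr2:165066503-165066564: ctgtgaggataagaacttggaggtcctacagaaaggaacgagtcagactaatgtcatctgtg
Cd40 exon 7, chr2:165069629-165069715: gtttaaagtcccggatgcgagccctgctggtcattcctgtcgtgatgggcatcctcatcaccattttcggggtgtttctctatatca
Cd40-202 leaves out exon 7, whose 87 bases are a multiple of 3, and has 780 coding bases. Cd40-203 leaves out exon 6, whose 62 bases are not, so its reading frame shifts and ends after 609 coding bases. Their junctions, 15 bases on each side with the downstream exon in capitals, are the following.
Cd40-202 exon 6 to 8: ctaatgtcatctgtgAAAAGGTGGTCAAGA
Cd40-203 exon 5 to 7: ttatccctggacaagGTTTAAAGTCCCGGA

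**Figure D4:**
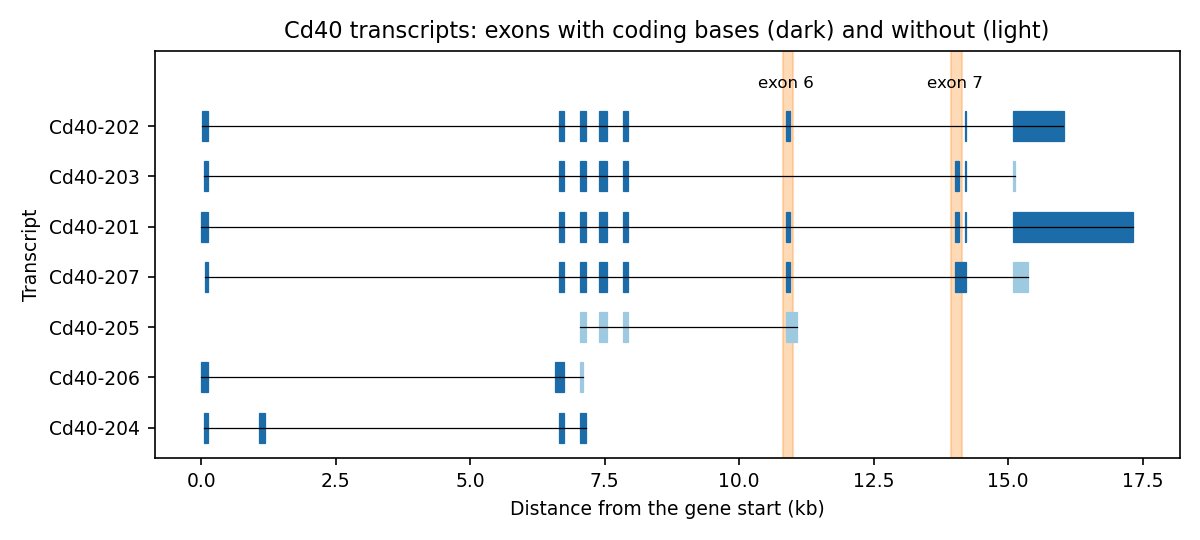
The 7 annotated Cd40 transcripts drawn to scale along the gene (distance from the gene start, kb), with exons that hold coding bases dark, other exons light and exons 6 and 7 of Cd40-201 shaded. Cd40-202 has no box at exon 7, Cd40-203 has none at exon 6, and Cd40-201 reaches farthest at the 3′ end.

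The division of Cd40 depended on the measure. By expected counts, not divided by length, Cd40-201 held 40.1% ± 2.89 and Cd40-202 39.2% ± 3.16, while Cd40-203 held 7.59% ± 0.69. In the other quantification Cd40-202 led with 25.1% ± 0.93, Cd40-207 had 19.9% ± 0.88 Cd40-205 18.5% ± 1.80, Cd40-203 17.6% ± 2.24 and Cd40-201 9.23% ± 0.90, and coding transcripts together held 56.8% ± 1.38. Cd40-202 was ahead of Cd40-203 on all 3 measures. Annotated lengths bear on these shares: Cd40-203 is 668 bases long and ends 24 bases into the last exon, against 2986 bases for Cd40-201 and 1596 for Cd40-202. Cd40-201 and Cd40-202 also end at different positions (165072948 and 165071654), and no annotated coding transcript combines exon 7 with the nearer end. The shares are model estimates, and reads over the junctions were not analysed here.

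Cd80 was divided between transcripts with the same protein. Cd80-201 held 58.0%, 43.1%, 54.9% and 54.0% of its TPM in replicates 1 to 4 (52.5% ± 6.51) and Cd80-202 40.2% ± 7.96, and both have the same number of coding bases, 918. In replicate 2 Cd80-202 was ahead, with 48.4%. By expected counts Cd80-202, annotated at 3173 bases against 1701, led with 59.3% ± 7.91. Cd80-203, which lacks an exon and has 636 coding bases, held 7.35% ± 4.10 of TPM, but that share rests on 27.9 counts over the 4 libraries.

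Lgals9 transcripts differ in the linker between the 2 sugar-binding domains of galectin-9, which sets how the domains are spaced. Lgals9-202 (966 coding bases) joins exon 4 to exon 6, and Lgals9-203 (1059 coding bases) includes exon 5 of 93 bases, which is printed because few of the Lgals9 transcripts held it. It is given 5′ to 3′ on the minus strand of mm10, followed by the junction that skips it with the downstream exon in capitals.
Lgals9 exon 5, chr11:78969714-78969806: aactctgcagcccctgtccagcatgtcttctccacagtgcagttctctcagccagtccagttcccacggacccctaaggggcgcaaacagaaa
Lgals9-202 exon 4 to 6: tttatcaccttccagACTCAGAACTTTCGT
The form without exon 5 held 96.6%, 95.8%, 96.7% and 96.5% of Lgals9 in replicates 1 to 4. Lgals9-203, named here after its value was seen, held 3.35% ± 0.44, and the other quantification gave 95.2% ± 0.33 and 4.18% ± 0.33 for the same transcripts.

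Related ligands were counted from lists chosen for their role. Among the other B7 and butyrophilin relatives 1 of 7 measured genes was detected: Vsir, which encodes the inhibitory ligand VISTA, at 103 ± 14.8 TPM (SD, n = 4). The TNF superfamily costimulators had 2 of 7 detected, Tnfsf9 and Tnfsf15. Tnfsf9, the ligand of 4-1BB, had 299.5, 305, 132 and 625 TPM, and it varied between libraries (edgeR deviance test, adjusted p = 1.64e-04). It was lowest in replicate 3 and highest in replicate 4, which are also the lowest and highest libraries for Cd40. Tnfsf15 had 6.51, 19.1, 3.71 and 10.7 TPM and also varied (adjusted p = 7.97e-05). Tnfsf8 and Tnfsf4 had means of 1.70 and 0.905 TPM and did not reach 1 TPM in every library.

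The SLAM family, to which Cd48 belongs, was detected in full, 8 of 8 genes, with a median of 149 TPM. Slamf7 had a mean of 623 ± 108 TPM (SD, n = 4), Cd84 505 ± 132 and Ly9 498 ± 137, all above Cd48. Slamf9 had 429.9 TPM in replicate 1 and 163, 167 and 163 TPM in replicates 2, 3 and 4, and it varied between libraries (edgeR deviance test, adjusted p = 4.32e-04). Among nectins and other galectins 6 of 8 were detected, with Lgals3 at 1557 ± 214 and Lgals1 at 1036 ± 268 TPM above Lgals9. Nectin4 had 29.4 ± 3.64 TPM, close to the level of Pvr, and Cadm1 had 15.6 ± 3.40 TPM.

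All 11 genes for antigen presentation and adhesion were detected, led by B2m (14909 ± 740.0 TPM), H2-K1 (8438 ± 633 TPM) and H2-D1 (4973 ± 332 TPM) of MHC class I. Fgl2, a ligand of inhibitory receptors, had 1100 ± 230.2 TPM. In this list Vcam1, an adhesion molecule, varied between libraries with 49.6, 20.9, 34.0 and 24.1 TPM (edgeR deviance test, adjusted p = 0.0241).

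Most of 11 listed receptor genes of T and NK cells were near 0, with 2 detected. Pdcd1, which encodes PD-1, was listed at 0.02 TPM in replicate 3 and at 0 in the others, and Tigit was listed at 0 in all 4 libraries. Ctla4 reached at most 0.05 TPM and Icos at most 0.30 TPM. The exceptions in this list were Cd28 and Lag3. Cd28 had 12.2, 36.1, 47.4 and 41.4 TPM and varied between libraries (edgeR deviance test, adjusted p = 0.00224). It was lowest in replicate 1, as were Cd80, Cd86 and 48.4% of all detected genes. The 8 T cell markers together had 1.85, 0.41, 0.74 and 0.69 TPM in the same libraries. Which cells held the Cd28 transcripts was not tested. Lag3 had 6.59 ± 2.47 TPM. Outside this list, the CD48 receptor gene Cd244a and the galectin-9 receptor gene Havcr2 were detected, at means of 4.585 and 11.7 TPM.

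**Figure D5:**
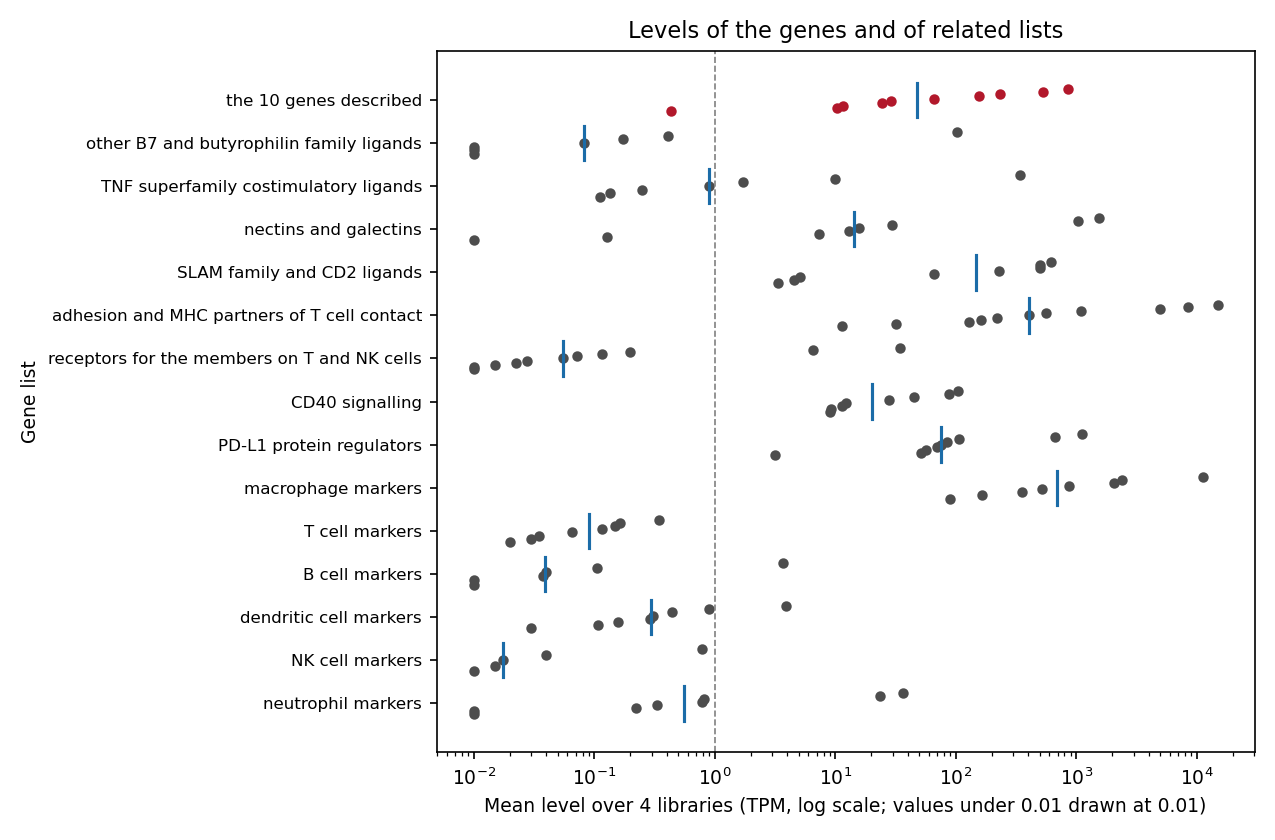
Mean level over 4 libraries (TPM, log axis; values under 0.01 drawn at 0.01) of the 10 genes in red and of related and cell type lists in grey, 1 point per gene, with a blue tick at each list's median and a dashed line at 1 TPM. Macrophage markers and SLAM relatives lie to the right of the line, while T cell, NK cell and most receptor genes lie to its left.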

How the data were processed

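PolyA RNA of 4 libraries in 1 group was sequenced, and each level is a mean with its SD across them. The genes of the set and all lists were chosen with earlier results of these data known. Per the deposited records the authors used mm10 with the GENCODE M21 annotation; programs are not given in the sources used here. The first quantification, from transcriptome alignments, holds per the file headers an expected count per gene or transcript, TPM scaled by the authors to 1 total in each library, and the deposited percent of its gene that each transcript holds. The second, made directly from the reads, holds deposited estimated counts and TPM per transcript, which were summed per gene here. Of 81881 entries, 55536 Ensembl genes were used; other entries held 0.0790% to 0.293% of counts. A count of 0 allows up to 3 counts, 0.0724 to 0.129 CPM; floors and intervals cover counting error only.

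Expected counts were rounded. The count tests were those of edgeR 4.0.16 in R 4.3.3, after filterByExpr and TMM (common biological coefficient of variation 22.4%), with DESeq2 1.42.0 as an alternative; both tests were tested on simulated data. Log values add 0.1 TPM. Tests in Python 3.11.15 used scipy 1.17.1. Replicate numbers come from the labels; nothing states separate cultures or animals, so p-values measure the spread between these libraries. Named were all 10 genes, at most 4 leading genes of each list plus those that varied, and transcripts with at least 10% of their gene in either quantification. Other genes were named after their values were seen. 3 list symbols had no entry in the annotation. 1 gene of a list is not reported here by name.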

Additional observations from a re-analysis of the deposited data

Results flagged for a closer look

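In 3 of 62 values checked (10 genes of the set, 19 transcripts and 33 genes of other lists) 1 library lay apart from the other 3, with a gap to its nearest neighbour above Dixon's 95% value for 4 samples. Chance alone gives such a gap in about 1 of 20 groups. Havcr2, the TIM-3 gene, had 5.69 TPM in replicate 1 against 13.2, 14.1 and 13.9 TPM in the others, a gap of 0.898 of the range on 250, 503, 1016 and 840 counts. Slamf9, a SLAM relative of Cd48, was high in replicate 1, with 429.9 TPM against 163, 167 and 163 TPM, a gap of 0.985 of the range. Cd276, the B7-H3 gene, was listed at 1.38 TPM in replicate 3 and at 0.06, 0.09 and 0.11 TPM in replicates 1, 2 and 4, a gap of 0.962 of the range. Replicate 1 is thus the library apart for Havcr2 and Slamf9, in opposite directions.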

How the results depend on the processing

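No paired analysis was possible because there is 1 group. The number of genes of the set at 1 TPM or more in each library stayed at 9 in the second quantification, without mitochondrial and ribosomal RNA genes and without each replicate. None of the set varied between libraries under any of 8 alternatives, and none differed by read files under 3 other settings. Leaving out a replicate sets 2 libraries against 1 there, with the lone library assumed to vary like the others, and again called none of the set. The number of varying genes was 305, with 314 to 347 under other normalisation, filter, trend and quantification and 135 to 219 with a replicate left out (135 without replicate 1, where 12092 genes were tested on 3 libraries). Genes called by read files were 0, against 88 with DESeq2, 35 without the filter on low counts and 0 to 12 with a replicate left out (12 without replicate 2); the cause was not tested. Of the 9 neighbouring pairs, 6 to 8 kept 1 order in all libraries. Havcr2 minus Cd80 reversed from 0.16 to -0.30 log2 units in the second quantification, and the cause was not tested. In that quantification Lgals9 had 688 ± 194 and Cd274 399 ± 48.3 TPM, without correction for the overall shift. The number of genes with a leading transcript was 9 throughout, also by expected counts, an alternative chosen after seeing the data. Depth limits Pdcd1lg2, on 45 counts, and Cd80-203, on 27.9.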

Other observations

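Class II MHC genes, which display peptides to helper T cells, ordered the libraries as Icosl did. H2-Aa had 124, 244, 170.3 and 348 TPM and H2-Ab1 had 97.4, 166, 126 and 262 TPM in replicates 1 to 4, and Icosl had 16.3, 29.4, 18.2 and 34.1 TPM. H2-Aa and H2-Ab1 were named after their values were seen, and with 4 libraries and adjusted p-values of 0.0696 and 0.0682 in the edgeR deviance test the shared order is a description only. The number of all genes with this order was not counted. Cd47, whose product signals to SIRP-alpha on phagocytes, was among the steadiest of the contact genes, with 596, 556, 572 and 540.4 TPM.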
